A study of Caenorhabditis elegans with 4 samples.

Results

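In the genome of Caenorhabditis elegans, 297 of the 3635 deposited binding peaks of the nuclear hormone receptor NHR-76 lay in tight groups of 3 or more, the subject of this account. Peaks of the combined list were chained along each chromosome when the gap between the end of one and the start of the next was at most 1000 bp. Chains of 3 or more peaks, called clusters here, numbered 86. Another 578 peaks formed pairs, and 2760 had no neighbour within 1000 bp and are called isolated. The members were chosen by the gaps in the combined list, so counts, gaps, widths and q-values of that list are descriptions with no test.

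The data come from chromatin immunoprecipitation and sequencing (ChIP-seq) of hermaphrodite worms at the L4 stage, the last larval stage. All 4 samples, 2 ChIP samples and 2 inputs, are of strain OP203, which carries the mutation unc-119(ed3) and the integrated transgene wgIs203, and were grown at 20 °C and fixed with 2% formaldehyde. The transgene (nhr-76::TY1 EGFP FLAG; unc-119) was delivered by bombardment and adds an NHR-76 with a GFP tag to that of the worm, and restores unc-119. The ChIP samples were precipitated with an antibody against GFP. The chromatin came from whole worms, so a peak does not tell in which tissue the site was bound.

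Nuclear hormone receptors bind DNA through a zinc finger domain and carry a second domain that can hold a small lipophilic ligand, which changes the set of partner proteins. The family is unusually large in nematodes. In this species nhr-76 has been linked to the control of body fat by serotonin. Transcription factors often occupy several neighbouring sites within a promoter or enhancer, and ChIP-seq reports each as a separate peak only where the reads fall off between them.

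The lists hold 1562 peaks for replicate 1, 3676 for replicate 2 and 3635 for the combined list, with positions in build WS180 and a q-value per peak given by the authors. Read depth is unknown. Of the combined peaks, 72.1% were identical in start, end and q-value to a replicate 2 peak, against 217 of the 297 cluster peaks (73.1%). Agreement between these lists is therefore no replicate check, and replicate 1 was used as the second look at each cluster. Whether its reads also entered the combined list is not given in the sources used here.

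Most clusters were small. There were 60 clusters of 3 peaks, 16 of 4, 7 of 5 and 3 of 6. Their length from the first start to the last end had a median of 3058.5 bp and ranged from 1437 to 10745 bp, and 10 clusters reached 5 kb. Peaks filled 61.1% of the total cluster length of 289.9 kb, from 16.9% of the sparsest cluster to 91.8% of the densest. Centres of neighbouring members were a median of 1049.5 bp apart, with quartiles of 812.0 and 1352 bp.

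Gaps of at most 1000 bp made up 500 of the 3629 gaps between neighbouring combined peaks, whose median was 10800 bp. The 211 gaps inside clusters had a median of 506 bp, and none was shorter than 201 bp. The shortest gap in the whole combined list was also 201 bp, as in replicate 2, and replicate 1 had none under 203 bp, so no list separates peaks closer than that. Among the 500 short gaps of the combined list, 186 measured 201 to 400 bp, 115 measured 401 to 600 bp, 110 measured 601 to 800 bp and 89 measured 801 to 1000 bp. Numbers went on falling past the rule, with 82 gaps of 1001 to 1200 bp and 53 of 1801 to 2000 bp.

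**Figure D1:**
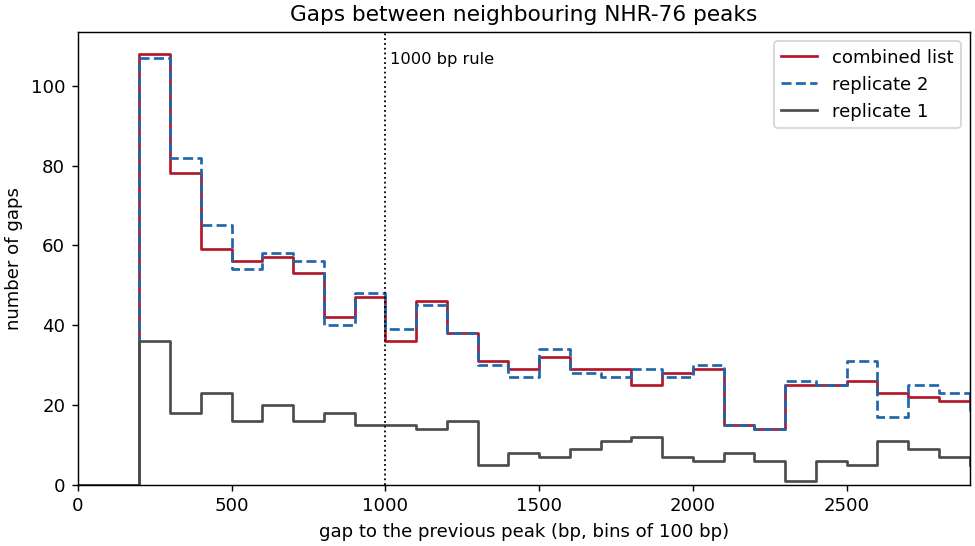
Number of gaps between neighbouring peaks (y axis) by gap length in bins of 100 bp (x axis) for the combined, replicate 2 and replicate 1 lists. Counts begin just above 200 bp in each list, and the dotted line marks the 1000 bp rule. At the line the combined counts go from 47 to 36, and in the following bin back to 46.

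The rule therefore divides a continuum. With a limit of 900 bp there were 74 clusters, and with 1100 bp there were 95. Just inside the rule was a cluster on chromosome I at 3295320 to 3298523 that depended on a gap of 999 bp. Its strongest peak ranked 723 in the combined list, where rank 1 is the smallest q-value. Another, on V at 1154433 to 1158667, depended on a gap of 998 bp and had its strongest peak at rank 64. Just outside were groups of 3 peaks on X at 8017967 to 8021990, joined by a gap of 1014 bp, and on IV at 324254 to 327977, joined by 1023 bp. Their strongest peaks ranked 186 and 197.

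Cluster peaks were wide and strong compared with isolated ones. The median width was 448 bp (quartiles 288 and 688 bp) in clusters, 373.5 bp in pairs and 276 bp (172 and 411 bp) among isolated peaks. Peaks of 800 bp or more made up 59 of the 297 cluster peaks (19.9%) and 128 of the 2760 isolated peaks (4.64%). The gap is measured from edge to edge, so a wide peak comes closer to its neighbours by construction. The widest peak of the list, 18986 bp on chromosome IV, belongs to a pair and is not a member. Clusters took 8.17% of all combined peaks but 12.7% of the sequence covered by peaks.

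The median log10 q-value was -6.96 in clusters, -6.32 in pairs and -5.19 among isolated peaks. Of the 5 equal parts of the combined list by q-value rank, here quintiles, the strongest held 109 cluster peaks (36.7%) and 449 isolated peaks (16.3%), and the weakest held 35 (11.8%) and 599 (21.7%). Of the 100 strongest peaks, 19 were in clusters and 53 were isolated. Within each quintile of q-value rank the cluster peaks were still the wider, with a median of 789 bp against 554 bp in the strongest quintile and 275 bp against 167 bp in the weakest. Peaks under 50 bp, 12 in clusters and 236 isolated, made up 4.04% and 8.55%.

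**Figure D2:**
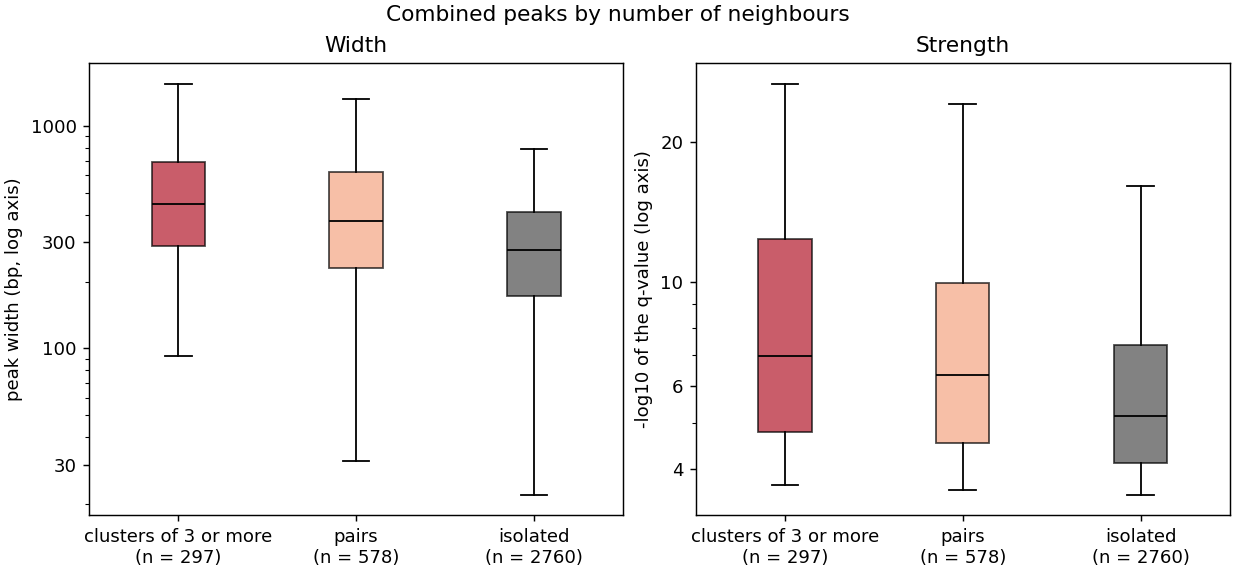
Peak width in bp (left) and -log10 of the q-value (right), both on log axes, for combined peaks in clusters, in pairs and isolated. Boxes span the quartiles with a line at the median, and whiskers reach the 5th and 95th percentiles; the median width falls from 448 bp in clusters to 276 bp among isolated peaks.

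The strongest cluster lay on chromosome V at 6220785 to 6229959. Its 3 peaks measured 4984, 2629 and 810 bp and filled 91.8% of 9175 bp. They ranked 2, 110 and 237 in the combined list, with q-values of 2.32e-86, 9.92e-25 and 2.03e-17. Each was found in replicate 1, where the first was covered by 2 peaks of 3191 and 1148 bp and the others by 1 peak each. The replicate 1 q-values were 1.07e-32 and 1.01e-16 over the first, 5.86e-11 over the middle and 4.93e-12 over the last. All 3 members were thus among the strongest sites of both lists.

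The longest cluster was on II at 10541896 to 10552640, with 5 peaks over 10745 bp. Its first peak, 3588 bp wide, ranked 5 with a q-value of 6.48e-79. The middle and the last peak, 2084 and 2108 bp wide, ranked 104 and 71, whereas the other 2, 830 and 349 bp wide, ranked 1004 and 2356. Wider, stronger peaks thus alternated with narrower, weaker ones. Replicate 1 had 8 peaks here, more than over any other cluster. It showed 3 peaks under the first member, 1 under the next, 2 under the middle one and 2 under the last, and none under the member of 349 bp.

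A cluster on I at 7656333 to 7662377 had 4 peaks that weakened from the first to the last, at ranks 10, 368, 477 and 2265. Their widths fell in the same order, from 3158 bp to 648, 591 and 421 bp. Replicate 1 held 2 peaks over the first and 1 over each of the next 2, and the last was absent from it. The first member's q-value was 1.11e-70 in the combined list, and the smaller of the 2 in replicate 1 was 8.89e-21.

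On III at 1923475 to 1926835 lay 3 peaks of 411, 872 and 448 bp, the strongest in the middle. The combined q-values were 1.24e-09, 2.15e-57 and 8.15e-27. In replicate 1 each member was a single peak, with q-values of 3.45e-06, 1.46e-34 and 9.81e-17 in the same order. In the combined list the order of strength was thus the same as in replicate 1, and the middle member ranked 22 in the former and 14 in the latter. A cluster on II at 9616999 to 9622145 also had all 3 members in replicate 1. Its peaks of 1301, 1129 and 1897 bp ranked 33, 658 and 145, and replicate 1 covered them with 1, 1 and 2 peaks.

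The 3 clusters of 6 peaks differed in make-up. On II at 8739702 to 8748047, the last members were the widest, 2242 and 2302 bp, and had q-values of 7.98e-39 and 4.16e-40. Replicate 1 held 4 of its 6 members, and the missing ones, 318 and 288 bp wide, were the 2 weakest. On V at 723767 to 731723 the members ranked between 143 and 2119, and replicate 1 again held 4 of 6. Here the member of 2360 bp, ranked 154 with a q-value of 2.64e-21, had no replicate 1 peak, while members ranked 971 and 1129 did. The remaining one, on II at 9600072 to 9604443, was made of narrow peaks of 5 to 521 bp that filled 41.7% of its length. Only the members ranked 122 and 372 were in replicate 1, and the peak of 5 bp at its edge ranked 3424.

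Among clusters of 5 peaks, that on IV at 8525940 to 8531629 alternated in strength as well, with ranks of 1706, 61, 1821, 94 and 2044 from left to right. Replicate 1 had a peak over each of the 2 strong members and over none of the 3 weak ones. On II at 6887516 to 6892266, a cluster of 3 peaks was covered by 5 replicate 1 peaks. They were 2 over the first member, 3 over the last and none over the middle one, which was the weakest at rank 1227.

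**Figure D3:**
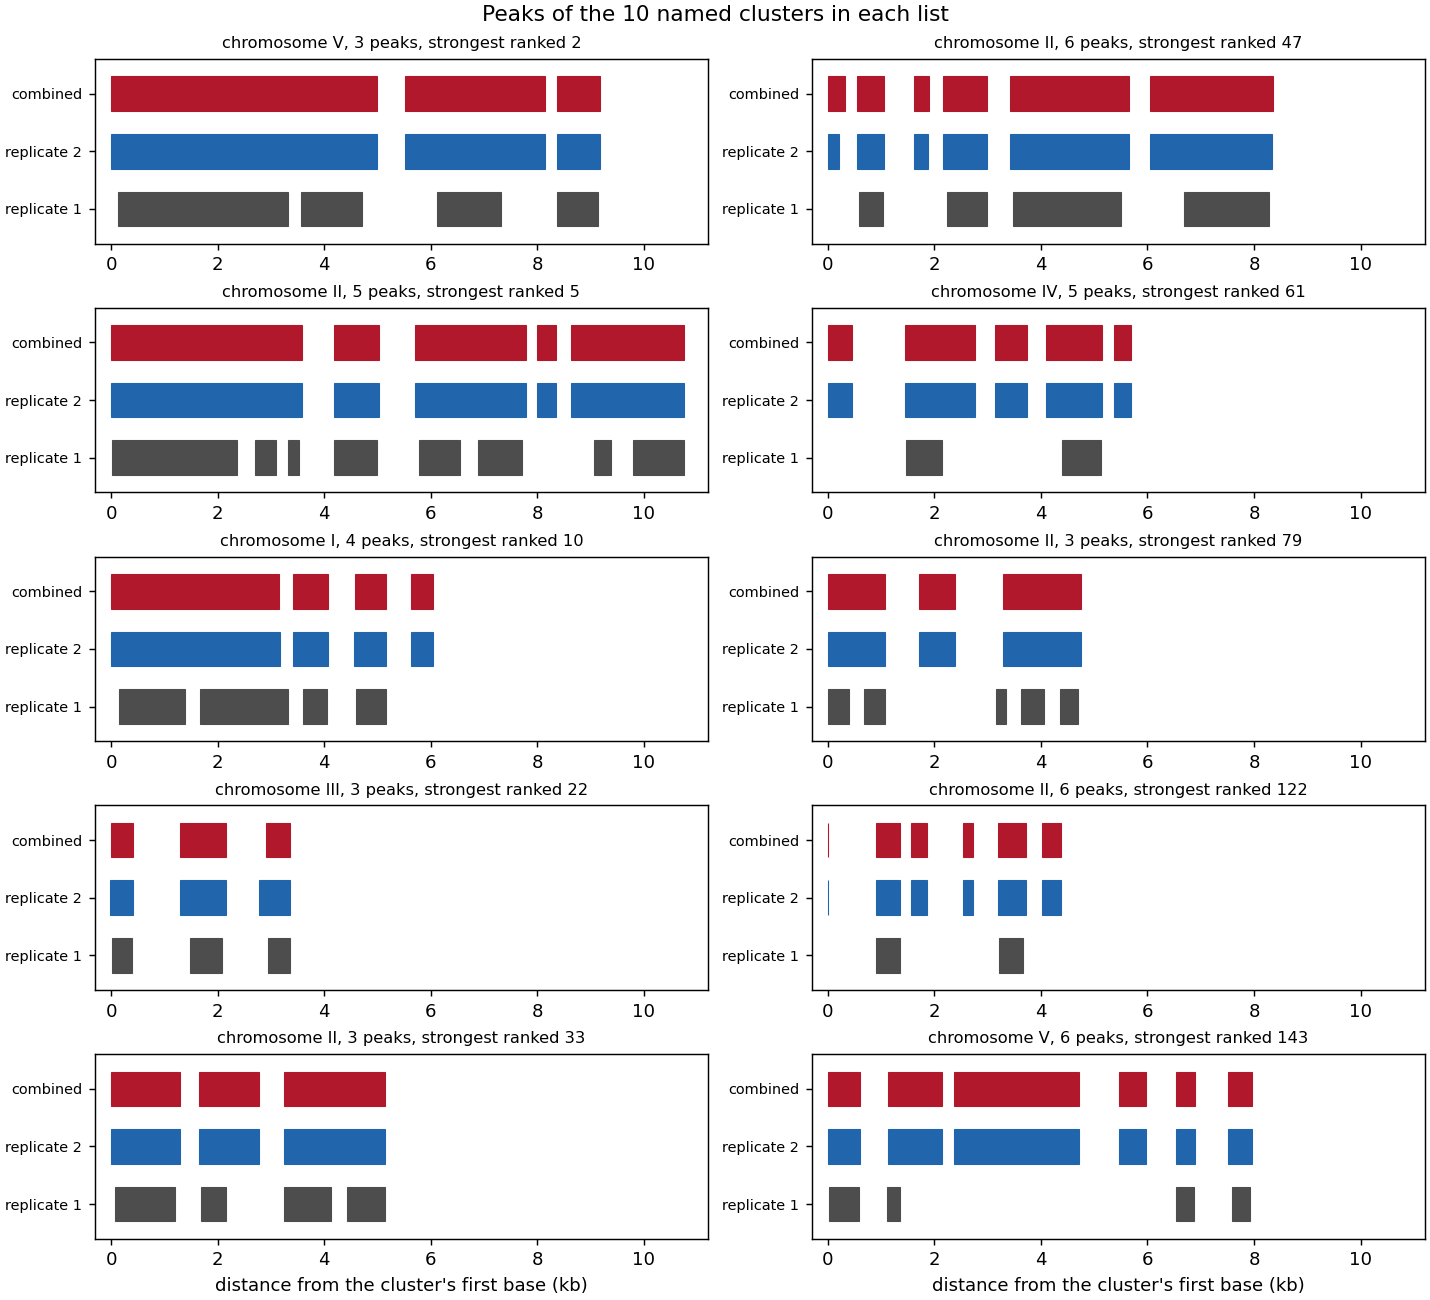
Peaks of the 10 named clusters in the combined, replicate 2 and replicate 1 lists, drawn to scale as bars against the distance from the first base of the cluster in kb. Replicate 2 bars nearly repeat the combined ones, while replicate 1 shows narrower bars, splits wide members and lacks many of the weak ones; on chromosome II it has 8 bars under 5 combined peaks.

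Ordered by q-value, the members of a cluster differed widely in strength. The strongest member of each cluster had a median width of 675 bp and a median rank of 353.5, the second 452 bp and 979.5, and the remaining 125 members 347 bp and 2212. Of the 86 strongest members, 68 (79.1%) were in the strongest quintile of the list, compared with 10 of the 125 that followed the second (8.0%). The median difference in log10 q-value between the strongest and the weakest member was 8.53, and between the strongest and the second 4.59. In 21 clusters (24.4%) a member of the strongest and a member of the weakest quintile of the whole list occurred together, not always as direct neighbours. Ordering members by q-value sets the direction of these differences and also adds to their size. No other grouping of peaks was compared, so they do not show a trait of clusters.

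The strongest member was also the widest in 57 of 86 clusters (66.3%). It lay at an end in 42 of the 60 clusters of 3 peaks (70.0%, 95% Wilson interval 57.5 to 80.1), where 2 of 3 places are ends. Inner and end members of these clusters had median widths of 546 and 442 bp and median ranks of 1181.5 and 1016. In replicate 1, 34 of the 60 inner members (56.7%) and 73 of the 120 end members (60.8%) had a peak. Intervals here and in the rest of the text cover counting error only, and peaks of 1 cluster are not independent.

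Cluster peaks, which were stronger and wider, were more often found in replicate 1 than isolated peaks. Replicate 1 overlapped 165 of 297 cluster peaks by at least 1 bp, or 55.6% (95% Wilson interval 49.9 to 61.1), against 40.4% of all combined peaks. It overlapped 281 of 578 peaks in pairs (48.6%, interval 44.6 to 52.7) and 1023 of 2760 isolated peaks (37.1%, interval 35.3 to 38.9). These intervals count neighbouring peaks as independent, which they are not, so they are no test of the difference. There is a single replicate 1 list, so no test across samples was possible.

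Within quintiles of q-value rank the shares lay closer together than over the whole list. In the strongest quintile, 105 of 109 cluster peaks (96.3%, interval 90.9 to 98.6) and 425 of 449 isolated peaks (94.7%, interval 92.2 to 96.4) had a replicate 1 peak. In the next quintile the shares were 70.2% (interval 57.3 to 80.5) and 64.6% (60.5 to 68.5), and in the middle quintile 26.9% and 27.8%. In the one after that they were 11.4% and 12.3%, and in the weakest 2.86% and 2.84%. With each quintile given equal weight, the share was 41.5% of cluster peaks and 40.4% of isolated peaks, a difference of 1.09 percentage points compared with 18.5 points before. In the strongest and the weakest quintile the shares lay near the ends of the scale, which leaves little room for a difference. Strength was not matched within a quintile, and its part in the 18.5 points was not tested. Within each quintile the intervals of the 2 classes overlapped, but they count neighbouring peaks as independent and are no test. With 35 to 109 cluster peaks per quintile some were wide, as from 57.3 to 80.5 in the quintile after the strongest. Differences of many points could therefore go unseen.

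**Figure D4:**
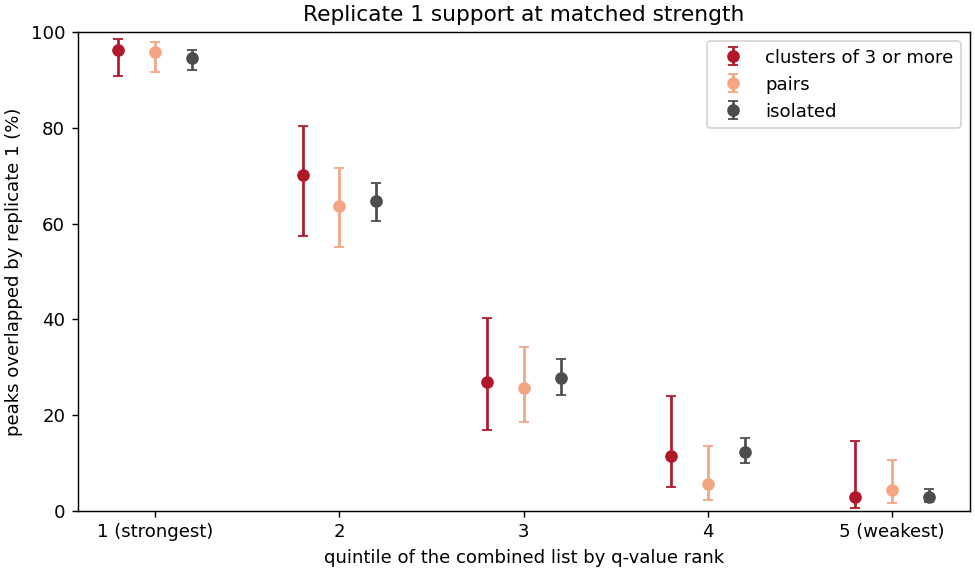
Share of combined peaks overlapped by a replicate 1 peak (y axis, percent) in each quintile of the combined list by q-value rank (x axis), for peaks in clusters, in pairs and isolated, with 95% Wilson intervals. The shares fall from over 94% in the strongest quintile to under 5% in the weakest, and the 3 classes overlap in every quintile.

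Within a cluster the replicate 1 share followed the same order. A replicate 1 peak lay over 75 of the 86 strongest members (87.2%, interval 78.5 to 92.7), 49 of the second (57.0%, interval 46.4 to 66.9) and 41 of the 125 others (32.8%, interval 25.2 to 41.4). Among the 56 clusters with at least 2 members in replicate 1, the member of smallest q-value was the same in both lists in 49 (87.5%, interval 76.4 to 93.8). Only 26 of these clusters had 3 or more such members, and with 2 members agreement by chance is frequent. No other grouping of peaks was compared, and replicate 1 reads may have entered the combined list. Across the 165 cluster peaks with a replicate 1 peak, Spearman's rho between the combined and replicate 1 q-values was 0.89. It was 0.81 across the 281 such peaks in pairs and 0.81 across the 1023 isolated ones. The log10 q-values of all cluster peaks were also more spread, with quartiles of -12.4 and -4.79, against -7.35 and -4.12 among isolated peaks. The part of this spread in the difference was not tested. These coefficients run across peaks, which are not replicates, and carry no p-value.

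Most clusters were touched by replicate 1, often through part of their peaks. At least 1 member had a replicate 1 peak in 77 of 86 clusters (89.5%, interval 81.3 to 94.4), at least 2 members had one in 56 (65.1%) and exactly 1 had one in 21 (24.4%). A cluster has at least 3 chances of such an overlap, so these shares cannot be set beside those of single peaks. Replicate 1 placed 3 or more peaks of its own in 29 clusters (33.7%, interval 24.6 to 44.2). Every member was found in 16 clusters (18.6%), of which 15 had 3 peaks and 1 had 4. Of these 16, 7 were on V (of 17 clusters), 4 on X (of 8), 2 on II (of 16), 2 on III (of 24) and 1 on IV (of 13). Their strongest peaks ranked between 2 and 503. The 9 clusters with no member in replicate 1 were weaker, with strongest peaks ranked between 492 and 2580, and lay on III (4), II (2), IV (2) and I (1).

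The gaps inside clusters were kept in replicate 1 wherever both sides were seen. Of the 211 neighbouring pairs of members, 70 (33.2%) were both covered, each by separate replicate 1 peaks. A single side was covered in 95 pairs and neither side in 46. In 0 of 211 pairs did 1 replicate 1 peak run across the gap, which was possible only where both sides were covered. Such peaks were rare in the whole combined list as well, with 2 for its 500 gaps of at most 1000 bp. Their absence is therefore no trait of clusters. The replicate 1 gap was the wider in 63 of the 70 pairs, with medians of 714 bp there and 565.5 bp in the combined list, and in 13 pairs it exceeded 1000 bp. Peaks were narrower in replicate 1, where the median width of the 150 members matched one to one was 445.5 bp compared with 586.5 bp in the combined list. For peaks in pairs matched in this way it was 398 and 529.5 bp, and for isolated peaks 307 and 383 bp. The narrowing is therefore no trait of clusters, and the gaps of pairs were not compared in this way.

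Replicate 1 also divided some wide members. Over 15 of the 297 cluster peaks (5.05%, interval 3.08 to 8.16) it had 2 or 3 peaks, against 0.99% of all combined peaks and 8 of 2760 isolated peaks (0.29%). These 15 members sat in 12 clusters and had a median width of 1554 bp. Among peaks of 800 bp or more, 14 of 59 in clusters (23.7%, interval 14.7 to 36.0), 12 of 87 in pairs (13.8%, interval 8.07 to 22.6) and 7 of 128 isolated peaks (5.47%, interval 2.67 to 10.9) were divided. Median widths in this range were 1083, 1031 and 1027 bp and median ranks 193, 197 and 248, but width was not matched within it. Some divided members share a cluster, 3 of them on II at 10541896 to 10552640, so the intervals are too narrow, and the difference was not tested.

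Applied to the replicate lists themselves, the rule found 90 peaks in 27 clusters in replicate 1 (5.76% of its peaks) and 313 peaks in 91 clusters in replicate 2 (8.51%). The number of clusters depends on the length of a list. When replicate 2 was reduced to its 1562 strongest peaks, it had 82 peaks in 26 clusters (5.25%), close to replicate 1. Of the 27 replicate 1 clusters, 12 (44.4%) overlapped 1 of those 26, and 12 of the 26 (46.2%) overlapped a replicate 1 cluster. Of the same 27, 19 lay over a combined cluster, and the other 8 lay over 2 combined peaks each. As in the combined list, the median width was larger in clusters than among isolated peaks, at 460.5 and 318.5 bp in replicate 1. Of the 86 combined clusters, 64 were present in replicate 2 with the same first base, last base and number of peaks, and 85 overlapped a replicate 2 cluster.

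Clusters were found on every chromosome, in unequal shares. On III 79 of 725 combined peaks were in clusters (10.9%, interval 8.83 to 13.4), in 24 clusters, and on II 60 of 568 (10.6%, interval 8.30 to 13.4), in 16 clusters. The share was 8.85% on V, with 17 clusters, and 8.03% on IV, with 13. It was lowest on I, at 27 of 535 peaks (5.05%, interval 3.49 to 7.24), and on X, at 24 of 542 (4.43%, interval 2.99 to 6.50), with 8 clusters each. Peak density was 52.9 combined peaks per Mb on III, 37.3 on II, 35.8 on I, 34.6 on IV, 32.0 on V and 31.0 on X, and its part in these shares was not tested.

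**Figure D5:**
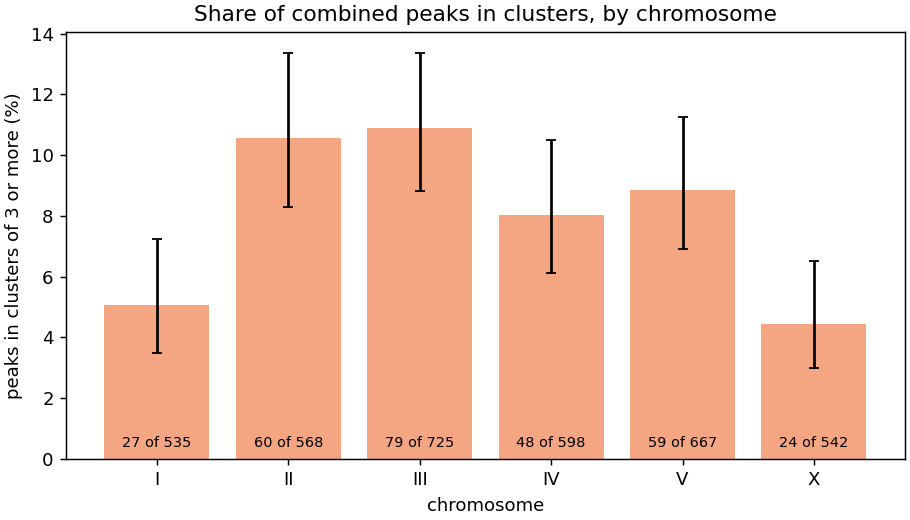
Share of the combined peaks of each chromosome (x axis) that lie in clusters of 3 or more (y axis, percent), with 95% Wilson intervals and the numbers of peaks on the bars. The shares on I and X, 5.05% and 4.43%, are below those on II and III, 10.6% and 10.9%.

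Replicate 1 shares of cluster peaks differed between chromosomes. On X, 19 of the 24 members (79.2%) had a replicate 1 peak, and on V 43 of 59 (72.9%), while isolated peaks had 39.2% and 37.6% on the same chromosomes. On I the shares were 33.3% of 27 members and 24.6% of isolated peaks, and on III 46.8% of 79 members and 40.8%. On II they were 55.0% of 60 members and 40.8%, and on IV 50.0% of 48 members and 37.8%. The share of members in the strongest 2 quintiles of the list was 76.3% on V, 58.3% on X, 58.3% on II, 49.4% on III, 47.9% on IV and 37.0% on I. X and II had the same share in these 2 quintiles pooled, but strength was not matched within them, and X had only 24 members. The part of strength in the differences between chromosomes was not tested. Along the autosomes clusters followed the other peaks, with 42.1% of members (interval 36.4 to 48.1) and 40.9% of isolated peaks (interval 38.9 to 42.9) in the central one of 3 equal segments.

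Clusters themselves were mostly far apart, with a median of 498.5 kb between neighbouring clusters of a chromosome. Only 3 of 80 neighbouring clusters were within 10 kb of each other. The closest were on X at 13348265 to 13351156 and 13353417 to 13356703, 2261 bp apart, and all 6 of their peaks had a replicate 1 peak. On II, the clusters at 12050482 to 12053059 and 12055898 to 12059283 were 2839 bp apart, and none of their 7 peaks was in replicate 1. In the latter cluster, 1 replicate 1 peak lay in a gap between members. The remaining pair, on II at 10862122 to 10863666 and 10867147 to 10869102, was 3481 bp apart, with 2 of 3 and 1 of 3 members in replicate 1. On V, the strongest cluster was followed by 2 more at 6246408 to 6248458 and 6275308 to 6278686, at distances of 16449 and 26850 bp, and the 9 peaks of these 3 clusters were all found in replicate 1. That group on V was picked after its values were seen.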

How the data were processed

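The authors deposited 3 peak lists, 1 per ChIP replicate and 1 named as combined, each with a position and a q-value per peak. Per the file headers the build is WormBase WS180, and per the file lines peaks were called with PeakSeq. The caller's version and cut-off, the aligner, the role of the inputs and the making of the combined list were not given in the sources used here. Input data were not analysed here. Gene names and sequence were not used, since no reference of build WS180 was at hand. Samples were grouped by title, and separate cultures are not stated for the replicates.

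Ranks follow the q-value, and peaks were chained at gaps of at most 1000 bp. Overlap meant at least 1 bp. Shares have 95% Wilson intervals. Named clusters were the 5 with most peaks, the 5 of smallest q-value, the 3 longest and the 3 with most replicate 1 peaks. The members, comparisons and this rule were chosen with earlier results of these data known. Chromosome segments divide the span between the outermost peaks of any list. Chaining and overlap were tested on simulated data. The software was scipy 1.17.1, pandas 2.3.3, matplotlib 3.10.9 and numpy 2.4.6 under Python 3.11.15.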

Additional observations from a re-analysis of the deposited data

How the results depend on the processing

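The number of cluster peaks, 297, was 81 with gaps of at most 500 bp, 607 with 2000 bp and 99 in the better-scoring 50% of the combined list. With as many of the strongest peaks as replicate 1 holds, an alternative chosen after seeing the data, it was 80 in the combined list and 82 in replicate 2. With a replicate left out it ranged from 90 (replicate 1 list alone) to 313 (replicate 2 list alone). The share of cluster peaks in replicate 1 was 80.8% in the better-scoring 50%, 86.25% in the list as long as replicate 1, 47.5% with a reciprocal overlap of 50%, 42.1% with centres within 100 bp and 41.5% as the mean over quintiles. The share of isolated peaks under these settings was 68.7%, 74.9%, 32.6%, 33.0% and 40.4%. It was 39.2% with gaps of 500 bp and 40.4% without peaks under 50 bp. Cluster peaks had the higher share under each of these settings, by 1.09 to 17.5 percentage points. Their median width was 412 bp with gaps of 2000 bp, 458 bp without peaks under 50 bp, 616 bp in the better-scoring 50%, 638 and 660 bp in the 2 lists as long as replicate 1, and 451 to 460.5 bp with a replicate left out. The share of clusters with 3 or more replicate 1 peaks was 45.8% with gaps of 500 bp. Shorter lists and shorter gaps leave fewer peaks to join by construction; for the other changes the cause was not tested. The other 22 of 47 alternative values stayed within the interval or spread of the reported value, or, for counts, within 1.5 times. For the median width this spread was the standard deviation of only 2 values, the medians of the replicate lists (6.72 bp). No paired analysis was possible because the inputs have no peak lists here and no result comes from a test. Read depth is unknown, which limits what the absence of a peak in replicate 1 can show.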

Other observations

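Of the 27 clusters of replicate 1, 8 lay over 2 combined peaks each and so are not members. The longest was on V at 18715802 to 18724530, where 4 replicate 1 peaks over 8729 bp lay over 2 combined peaks, the wider of 5722 bp. Another, on I at 8865224 to 8869405, had 4 replicate 1 peaks over 4182 bp, the strongest with a q-value of 1.55e-30. The reverse was rare in the whole list: only 2 replicate 1 peaks ran across a gap between combined peaks, on IV at 2710438 to 2711706 and on X at 6742027 to 6743195, and both joined the members of a pair.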
